A study of Mus musculus with 4 samples.

Results

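The 10 genes described here encode integrin chains of leukocytes and of the cells of the vessel wall: Itgax, Itgam, Itgal, Itgb2, Itgb7, Itga4, Itgb1, Itga8, Itga9 and Itgb3. They were listed by name, through the Ensembl identifiers of the files and their symbols, without a cutoff on a measured value. Earlier results of these data were known when they were chosen. All 10 were found among the 27998 genes listed in each of the 4 libraries, which list 26 integrin chain genes in all.

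Integrins are cell-surface receptors made of 1 alpha and 1 beta chain, which bind extracellular matrix or proteins on other cells and link them to the actin skeleton. The beta 2 chain (Itgb2, CD18) is found on leukocytes and pairs with the CD11 alpha chains. These are alpha L (Itgal, CD11a), which binds ICAM proteins, alpha M (Itgam, CD11b), which binds complement fragment iC3b and fibrinogen, and alpha X (Itgax, CD11c), which is widely used to mark dendritic cells and some tissue macrophages. The alpha 4 chain (Itga4) pairs with beta 1 to bind VCAM-1 and with beta 7 (Itgb7) to bind MAdCAM-1. Beta 1 (Itgb1) also pairs with alpha 8 (Itga8), a receptor for nephronectin, and alpha 9 (Itga9), a receptor for tenascin-C and osteopontin. The beta 3 chain (Itgb3) pairs with alpha V on endothelial cells, fibroblasts and smooth muscle and with alpha IIb on platelets.

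In GRCm38 coordinates of the GENCODE M21 annotation, 3 of the CD11 chains lie on chromosome 7: Itgal at chr7:127296260-127335138, Itgam at chr7:128062640-128118491 and Itgax at chr7:128129547-128150657, all on the plus strand. Itgax starts 11055 bases after the end of Itgam. Because these neighbouring genes differed in opposite directions between the 2 main types of intimal macrophage, the 250 bases before each start are shown. They are RefSeq promoter windows on GRCm38.p6, printed 5′ to 3′ on the plus strand, with the letters GAGGAA, the core bound by PU.1-type factors of myeloid cells, in capitals wherever they occur (printed as TTCCTC where the motif lies on the minus strand).
Itgam, chr7:128062390-128062639: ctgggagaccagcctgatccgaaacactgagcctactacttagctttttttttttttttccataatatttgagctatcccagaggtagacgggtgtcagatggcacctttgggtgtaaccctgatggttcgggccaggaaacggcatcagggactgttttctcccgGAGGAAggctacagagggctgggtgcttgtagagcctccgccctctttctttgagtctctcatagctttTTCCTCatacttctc
Itgax, chr7:128129300-128129549: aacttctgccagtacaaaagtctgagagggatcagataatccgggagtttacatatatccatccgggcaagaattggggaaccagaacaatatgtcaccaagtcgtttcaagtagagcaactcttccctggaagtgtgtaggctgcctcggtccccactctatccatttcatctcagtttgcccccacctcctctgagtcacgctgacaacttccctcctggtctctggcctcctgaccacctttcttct
The Itgam window held the motif at 84 and at 15 bases before the start and the Itgax window held none. Of the 7 members with a RefSeq window, only Itgam and Itgb1 (9 bases before the start) held it, against 23.25% of 32851 promoter windows of the same length. The Itga9 window, chr9:118711442-118711691, lies inside that gene's GENCODE span and not before the start given below. A match of letters is a description, and the absence of these letters in a window says nothing of binding elsewhere. The other members lie at chr10:77530252-77565708 (Itgb2), chr2:79255426-79333123 (Itga4), chr9:118606690-118901003 (Itga9), chr8:128685654-128733200 (Itgb1) and chr11:104608000-104670476 (Itgb3) on the plus strand, and at chr15:102215995-102231944 (Itgb7) and chr2:12106632-12301922 (Itga8) on the minus strand.

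Single-cell RNA was counted in 4 libraries of C57BL/6 mouse aorta: the scraped intima of the aged descending aorta (libraries a and b, each a pool of 6 mice), the scraped intima of the young aortic arch (1 pool of 8 mice) and aged adventitia (1 library, number of mice not given). Ages come from the titles of the samples, sex is not stated, and no mouse carried a named mutation or treatment. Per the labels, aortas were opened flat, bathed in trypsin and scraped under a microscope, with actinomycin D added to stop transcription and red cells lysed. The same text stands for the adventitial library, although it says that the adventitia was taken off. After filters 1988, 2091, 2114 and 7851 cells were left, with a median of 5198.5, 4872, 6952 and 2473 unique molecular identifiers (UMIs, 1 per captured RNA molecule). These values are in the order descending a, descending b, arch and adventitia, which every series of 4 values below follows.

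Cells were clustered and named from marker genes with all integrins left out, so the integrin levels played no part in the naming. Endothelial clusters carried 9 of 10 endothelial markers, fibroblast clusters 9 or 10 of 10, macrophage clusters 7 to 10 of 10 and the smooth muscle cluster 7 of 7. Levels are given as CPM, the UMIs of a gene per 1000000 UMIs of all genes in the summed cells of 1 class and library, with exact 95% Poisson intervals that cover counting error only. The endothelial class held different cells in different places. Those of the adventitia were nearly all 1 cluster led by Gpihbp1, a capillary gene. Those of the arch were mostly in clusters 3 and 12, and those of the descending aorta in clusters 2, 8 and 9. Fibroblasts of the intima were cluster 1 and those of the adventitia clusters 5 and 11. Libraries shared 4 to 31 barcodes in any pair, of 2095 to 9347. Because the 3′ reads of different genes are captured with different efficiency, levels are compared between cells and not between genes.

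**Figure D1:**
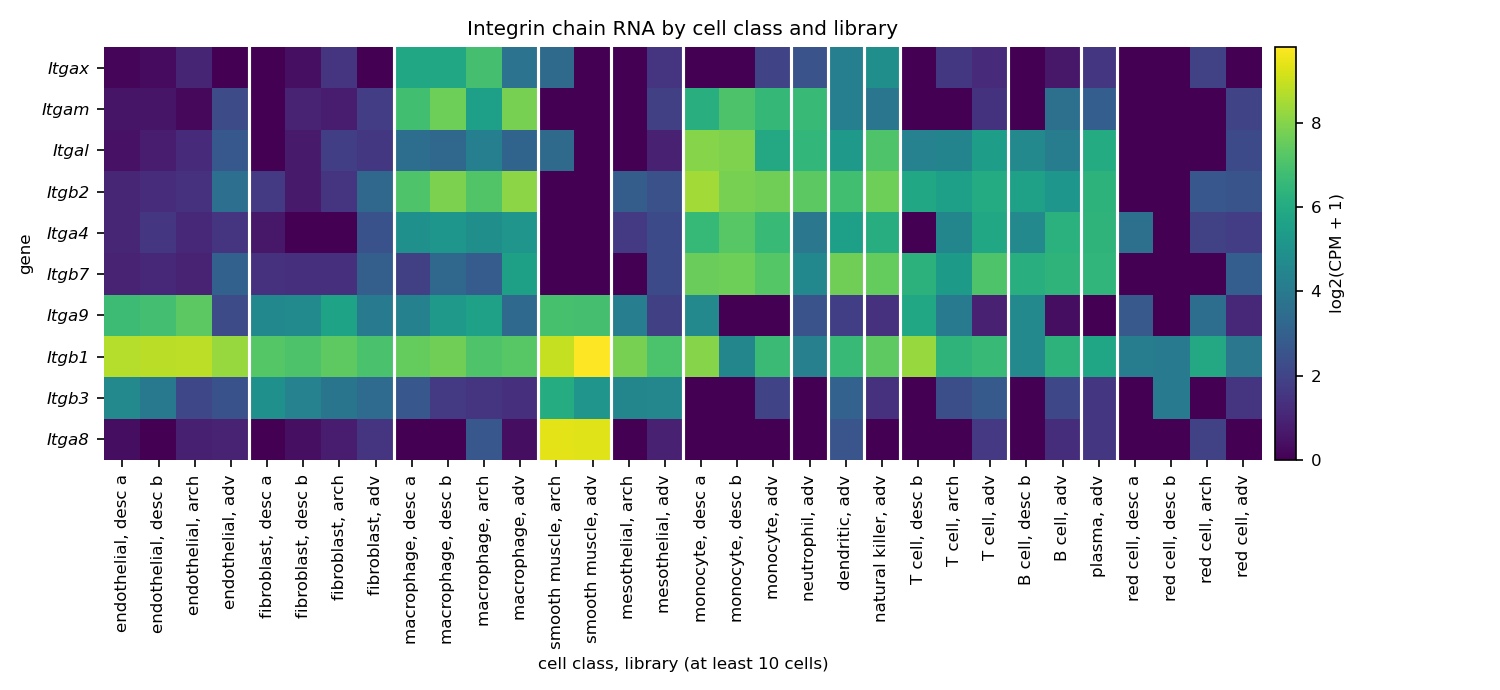
Level of each of the 10 integrin genes (rows) in each cell class and library with at least 10 cells (columns), as log2(CPM + 1); desc a and desc b are the aged descending libraries, arch the young arch and adv the aged adventitia. The beta 2 chain is bright in macrophages, monocytes, neutrophils and natural killer cells, and its alpha partners differ among these. Itgam is bright in all of them but natural killer cells, Itgal in monocytes, neutrophils and natural killer cells, and Itgax in intimal macrophages. Itga9 is bright in intimal endothelium and smooth muscle, and Itga8 in smooth muscle alone.

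Intimal macrophages carried the CD11 and beta 2 chains and the endothelium around them hardly any. Itgb2 stood at 136, 231 and 142 CPM in the macrophages of the 2 descending libraries and of the arch, from 51, 107 and 158 UMIs, against 1.06, 1.37 and 1.67 CPM in endothelial cells of the same libraries. Itgam, the complement receptor chain, stood at 115, 201 and 45.8 CPM in macrophages and 0.480, 0.455 and 0.167 CPM in endothelium. Itgax stood at 56.04, 56.3 and 119 CPM in macrophages and 0.0960, 0.228 and 0.999 CPM in endothelium. For each of the 3 chains the lowest macrophage library was far above the highest endothelial one. Itgal, the chain best known from lymphocytes, stood in macrophages at 10.7, 8.65 and 17.96 CPM from 4, 4 and 20 UMIs.

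Tested over the 6 sums of macrophages and endothelial cells with the library as a block, 9 of the 10 members passed the filter on low counts, and all 9 were called at an adjusted p under 0.05 by edgeR's quasi-likelihood test. A call is common in this comparison: 40.8% of the 12112 genes tested were called, 18.9% higher and 21.8% lower in macrophages, and a member could pass the filter through the class where it is high. Of the members 6 were higher in macrophages, with log2 fold changes of 8.52 ± 0.31 (SE) for Itgam, 7.68 ± 0.36 for Itgax, 7.18 ± 0.24 for Itgb2, 4.79 ± 0.46 for Itga4, 4.23 ± 0.67 for Itgal and 2.86 ± 0.77 for Itgb7 (edgeR adjusted p from 7.25e-19 to 0.00358). The 3 others were higher in endothelium: Itga9 (-1.52 ± 0.21, adjusted p = 1.19e-06), Itgb1 (-1.07 ± 0.18, 2.7e-05) and Itgb3 (-1.62 ± 0.60, 0.0329). The median over these 9 was 4.23, beside -0.15 over all genes tested. The call on Itgb3 was lost without library a (edgeR adjusted p = 0.194), without library b (0.213) and by DESeq2 (0.156). Nothing in the labels says that libraries are separate experiments beyond their pools of mice. All p-values here thus reflect how far these few libraries differ among themselves, a spread that may be technical. For each gene edgeR estimates that spread largely from all genes together.

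Within the macrophages, Itgax separated the types. Macrophages were divided into a Lyve1 type (Lyve1, F13a1, Cd163, Folr2; 57, 52, 39 and 292 cells), an intima resident type (Mmp12, Cx3cr1, Acp5; 25, 18, 77 and 0 cells), a Ccr2 MHC class II type and, in the adventitia, a serosal-like type (Serpinb2, F10, Alox15; 112 cells). In the intima resident type Itgax stood at 185 (115 to 283), 191 (113 to 302) and 177 (147 to 211) CPM in descending a, descending b and arch. In the Lyve1 type it had 0 UMIs in each of these libraries, where the exact upper limits are 15.8, 14.3 and 18.3 CPM, and 1 UMI in the adventitia (0.998 CPM). The 3 intima resident values lie within each other's intervals. With the Lyve1 type held at a floor of 3 counts, Itgax was at least 14.4-fold, 16.4-fold and 11.8-fold higher in the intima resident type of the 3 libraries, and at least 41.4-fold higher over the libraries together, where the floor counts once for the group. All 3 libraries entered the test of types, descending b with 18 intima resident cells (edgeR adjusted p = 1.63e-07). With 0 UMIs in the Lyve1 type, Itgax passed the filter on low counts only through the intima resident type, where it is high. That p-value therefore adds no support beyond the levels themselves.

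Itgam went the other way. It stood at 133 (90.05 to 188), 182 (134 to 243) and 119 (76.5 to 178) CPM in the Lyve1 type and at 52.9 (19.4 to 115), 42.4 (11.6 to 109) and 10.1 (4.07 to 20.9) CPM in the intima resident type. Every Lyve1 value was above every intima resident value, and Itgam fell in the intima resident type (log2 fold change -2.40 ± 0.40 SE, edgeR adjusted p = 0.000193). The size rests partly on the arch: without that library the log2 fold change was -1.66 (adjusted p = 0.00212). The shared beta chain did not separate the types at this depth: Itgb2 stood at 107, 237 and 144 CPM in the Lyve1 type and 149.9, 138 and 142 CPM in the intima resident type (log2 fold change -0.02, edgeR adjusted p = 0.960), and the sign turned without descending b (0.29).

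Of the members 5 passed the filter in this comparison of types, 1 was called higher, 1 lower and 3 not, where 26.7% of 3443 genes were called (13% higher, 13.7% lower). Their median log2 fold change was 0.31, beside -0.04 over all genes. A member could pass the filter through the type where it is high, as Itgax did. Itga9 (0.40 ± 0.49, 0.614) and Itgb1 (0.31 ± 0.26, 0.425; log2 fold change ± SE and edgeR adjusted p) were the other 2 tested and not called. Itgal, too low for the test, had 3, 1 and 18 UMIs in the intima resident type (26.4, 10.6 and 26.1 CPM) and 1, 2 and 0 in the Lyve1 type (4.28, 7.76 and 0 CPM). Few cells of the intima resident type had Itgam RNA, with or without Itgax: in the arch 5 of the 55 cells with an Itgax UMI also had 1 of Itgam, and 38 had 1 of Itgb2, while 7 and 48 of all 77 cells of that type had these chains. At a median of 8894 UMIs a cell, a chain without a UMI is not shown to be absent.

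**Figure D2:**
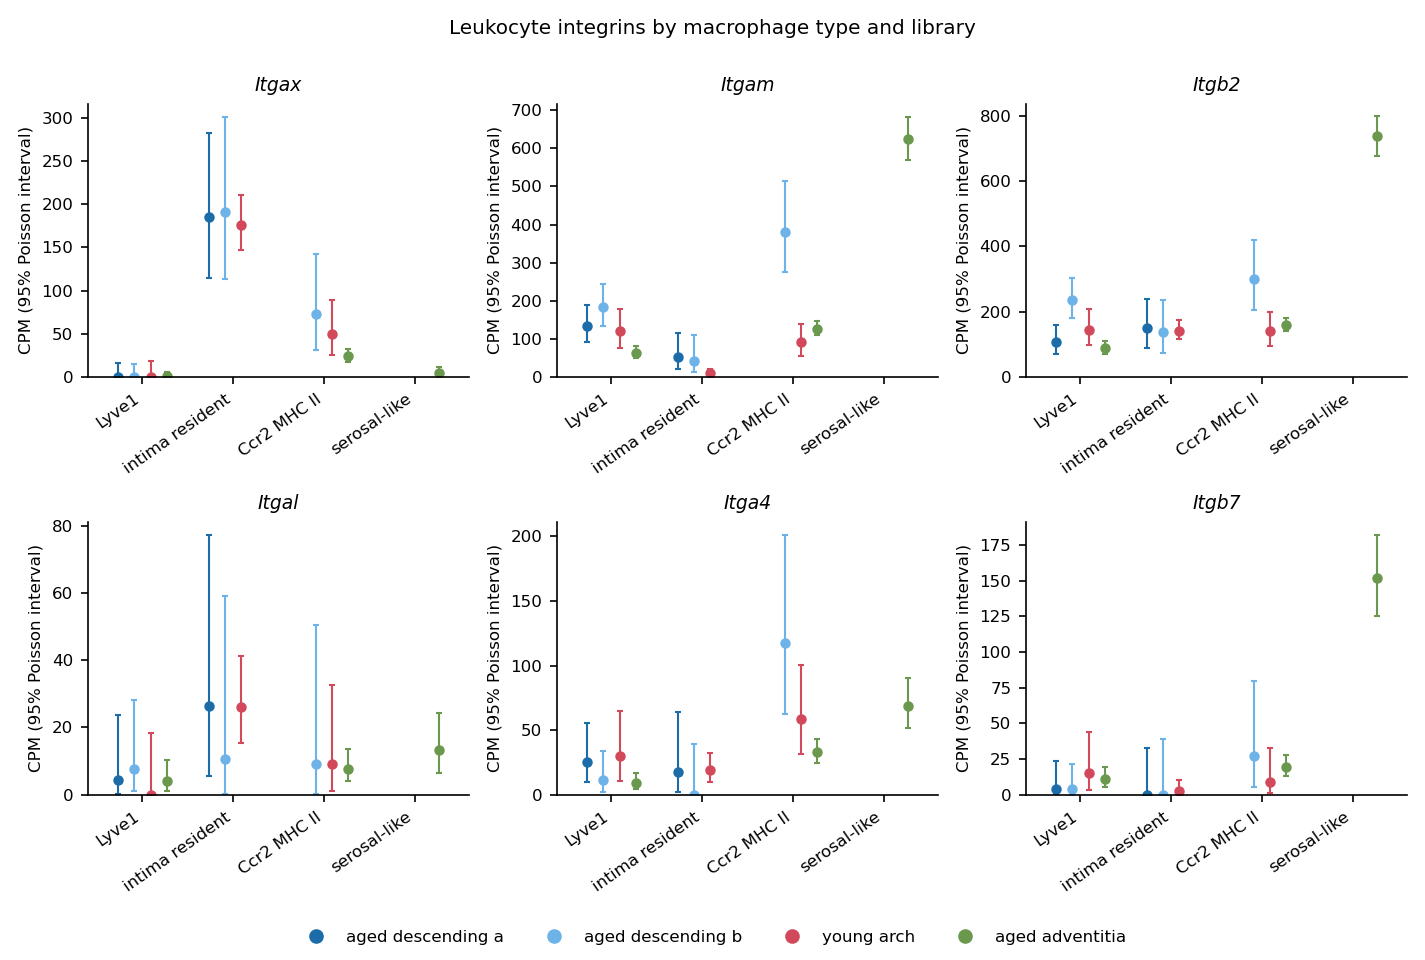
CPM of the 6 leukocyte integrin genes (panels) in the 4 macrophage types by library; points are single libraries with at least 10 cells, bars are exact 95% Poisson intervals. Itgax is high in the 3 intima resident values and near 0 in the Lyve1 type, Itgam falls from the Lyve1 to the intima resident type, and Itgb2, Itgam and Itgb7 are highest in the serosal-like type of the adventitia.

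Among the other macrophages, those of the Ccr2 MHC class II type were intermediate for Itgax, and the serosal-like type had the highest levels of Itgam and Itgb2. In the Ccr2 MHC class II type Itgax stood at 72.5, 49.5 and 23.7 CPM in descending b, arch and adventitia (library a held 6 such cells and is not shown). All intimal cells of this type fell in a cluster led by Ear2. The adventitial cells were of 2 kinds: 130 in that cluster had 45.7 (31.5 to 64.2) CPM of Itgax, and 253 in another, led by Hspa1a, had 4.78 (1.30 to 12.2) CPM. The name of the latter depends on a filter: it held all 7 markers of the Ccr2 MHC class II type and 6 of 12 of the Lyve1 type, and with a mitochondrial limit of 5% the cluster led by Hspa1a held 4 and 9 and was named Lyve1 type. Itgam was likewise higher in the former, at 194 against 68.1 CPM. The serosal-like macrophages had 625 (569.5 to 683) CPM of Itgam and 738 (678 to 802) CPM of Itgb2, above every other class in the 4 libraries, and 3.96 CPM of Itgax from 3 UMIs. Of the 107 serosal-like cells with an Itgam UMI, 103 also had 1 of Itgb2; thinned to 2000 UMIs a cell, 59 of 82 did. Of all 112 cells, 107 had Itgb2, and 83 after thinning, a share like that among cells with Itgam. These cells are 1 library, so there is no test.

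The macrophage class of the young arch had more Itgax and less Itgam than that of the aged descending aorta. Itgax stood at 119 (99.97 to 142) CPM in the arch against 56.04 (34.7 to 85.7) and 56.3 (36.7 to 82.4) CPM (log2 fold change 1.19 ± 0.34 SE, edgeR adjusted p = 0.0203). Itgam stood at 45.8 (34.1 to 60.2) CPM against 115 (83.05 to 155) and 201 (162 to 246) CPM (log2 fold change -1.70 ± 0.36 SE, edgeR adjusted p = 0.000239). In both genes the arch lay outside the pair of descending values. The 6 other members tested were not called, where 3.19% of 8149 genes were (1.52% higher, 1.67% lower), and the median over the 8 members was 0.06, beside -0.01 over all genes. The makeup of the class moved with these values: the intima resident type was 77 of 141 macrophages in the arch, 25 of 88 in descending a and 18 of 83 in descending b. Within the intima resident type alone the log2 fold change of Itgax was -0.07 (adjusted p = 0.985), and within the Lyve1 type alone that of Itgam was -0.43 (adjusted p = 0.901). DESeq2 did not call Itgam in the class (adjusted p = 0.0731). Smooth muscle markers were also higher in arch macrophages, at 405 CPM summed over 7 genes against 32.02 and 45.4 CPM. Their part in either result was not tested.

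Every comparison of the arch or the adventitia sets 1 library against the same 2 descending libraries and leaves 1 residual degree of freedom. Its p-value assumes that the lone library varies as the descending pair does. The spread came mainly from all genes together: edgeR's prior degrees of freedom were infinite in macrophages, 56.6 in endothelium and 30.2 in fibroblasts. These p-values thus measure little of a gene's own spread, and in macrophages none of it. A gene could also pass the filter on low counts through the lone library alone, where it is high. In the arch, age, region and library cannot be told apart, and in the adventitia, layer and library cannot.

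Adventitial macrophages had less Itgax and Itga9 than the descending class and more Itgb7. Itgax stood at 12.4 (8.87 to 16.8) CPM in the adventitia, below both descending values (log2 fold change -1.95 ± 0.40 SE, edgeR adjusted p = 3.89e-05). Itga9 stood at 9.34 CPM against 18.7 and 38.9 CPM (log2 fold change -1.42 ± 0.48 SE, edgeR adjusted p = 0.0346). That call was lost with no filter on low counts (edgeR adjusted p = 0.0979) and within the Lyve1 type (-0.96, 0.669). Endothelial markers, summed over 10 genes, were 1393 and 1374 CPM in the descending macrophages and 86.8 CPM in the adventitial ones, and their part in the Itga9 difference was not tested. Itgb7 stood at 47.01 (39.9 to 54.99) CPM against 2.67 and 8.65 CPM from 1 and 4 UMIs (log2 fold change 3.19 ± 0.56 SE, edgeR adjusted p = 4.16e-07). The adventitia lay outside the descending pair in all 3 genes. Of the 8 members tested, 1 was called higher and 2 lower, where 10.3% of all genes were called (5.49% higher, 4.81% lower), with a median of 0.12, beside -0.05. Most of the Itgb7 lay in the serosal-like type: 115 of the 156 adventitial macrophage UMIs, at 152 CPM, against 10.98 CPM in the Lyve1 type and 19.2 CPM in the Ccr2 MHC class II type.

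DESeq2 called none of these 3 genes (adjusted p = 0.195 for Itgax, 1.00 for Itga9 and 0.323 for Itgb7), and without descending b the log2 fold changes of Itga9 and Itgb7 were -0.80 and 4.29. Without the Ear2-led cells Itgax differed more (-3.93, edgeR adjusted p = 8.03e-12) and Itgam (1.06, 0.000823) and Itgb2 (1.00, 0.00109) rose. In the class as a whole neither was called (Itgam 0.70 ± 0.29, 0.116; Itgb2 0.78 ± 0.29, 0.0663). The Lyve1 type, present in every library, went against the class, although its adventitial cells (291 of 292) and its intimal cells formed separate clusters. There Itgam stood at 62.9 CPM in the adventitia, below 133 and 182 CPM in the descending aorta, and fell (log2 fold change -1.10, edgeR adjusted p = 0.0103). Itgb2 in the Lyve1 type at 88.9 CPM was lower than 107 and 237 CPM without passing the test (-0.73, 0.120). The endothelial markers summed over 10 genes moved with layer in this type, at 1471 and 1184 CPM in the descending aorta and 59.9 CPM in the adventitia, and their part in these results was not tested.

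The remaining leukocytes were almost all adventitial, so their levels describe 1 library. Itgal, the chain of LFA-1, was highest in natural killer cells, at 135 (107 to 168) CPM, and in an unnamed lymphoid cluster led by Cd163l1 and Cxcr6, at 113 (72.9 to 166) CPM, 2 values within each other's intervals. Neutrophils (87.9 CPM), plasma cells (64.6) and monocytes (59.97) followed with overlapping intervals, then T cells (43.5, 35.5 to 52.8), dendritic cells (37.8) and B cells (16.4, 12.5 to 21.2). The T cell class left out unnamed clusters led by Ccl5 and Nkg7 (300 adventitial cells) and by Gzmk and Ccl5 (270 adventitial cells). Each held 5 of 8 T cell markers, and neither is in the T cell values given here or below. Red cells, taken as the background, had 3.62 CPM of Itgal, 4.83 CPM of Itgb2, 2.41 CPM of Itga4 and 6.64 CPM of Itgb7, at a median of 1994 UMIs a cell against 1768 in natural killer cells. In the descending libraries the 10 monocytes each had 257 and 241 CPM of Itgal from 11 and 11 UMIs, above the adventitial value, with no test because of the number of cells.

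Itgb2 followed the myeloid and natural killer cells. After the serosal-like macrophages came monocytes (206, 173 to 244 CPM), natural killer cells (199, 164 to 238 CPM) and neutrophils (162, 113 to 225 CPM), which could not be ordered, then dendritic cells (114 CPM), plasma cells (79.8 CPM), T cells (65.1 CPM) and B cells (34.9 CPM). Itgam was low in lymphocytes. Neutrophils had 97.1 and monocytes 92.3 CPM of Itgam, against 13.3 CPM in natural killer cells, 11.3 in B cells and 1.69 in T cells, with 3.02 CPM in red cells. Itgax outside the macrophages was highest in an unnamed cluster led by Cd209a and Ccl17 (30.03 CPM from 10 UMIs), in natural killer cells (28.4 CPM from 17 UMIs) and in the dendritic cells marked by Xcr1 and Clec9a (17.7 CPM from 7 UMIs). All 3 values were far under those of the intima resident macrophages, and the dendritic interval ended at 36.4 CPM.

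**Figure D3:**
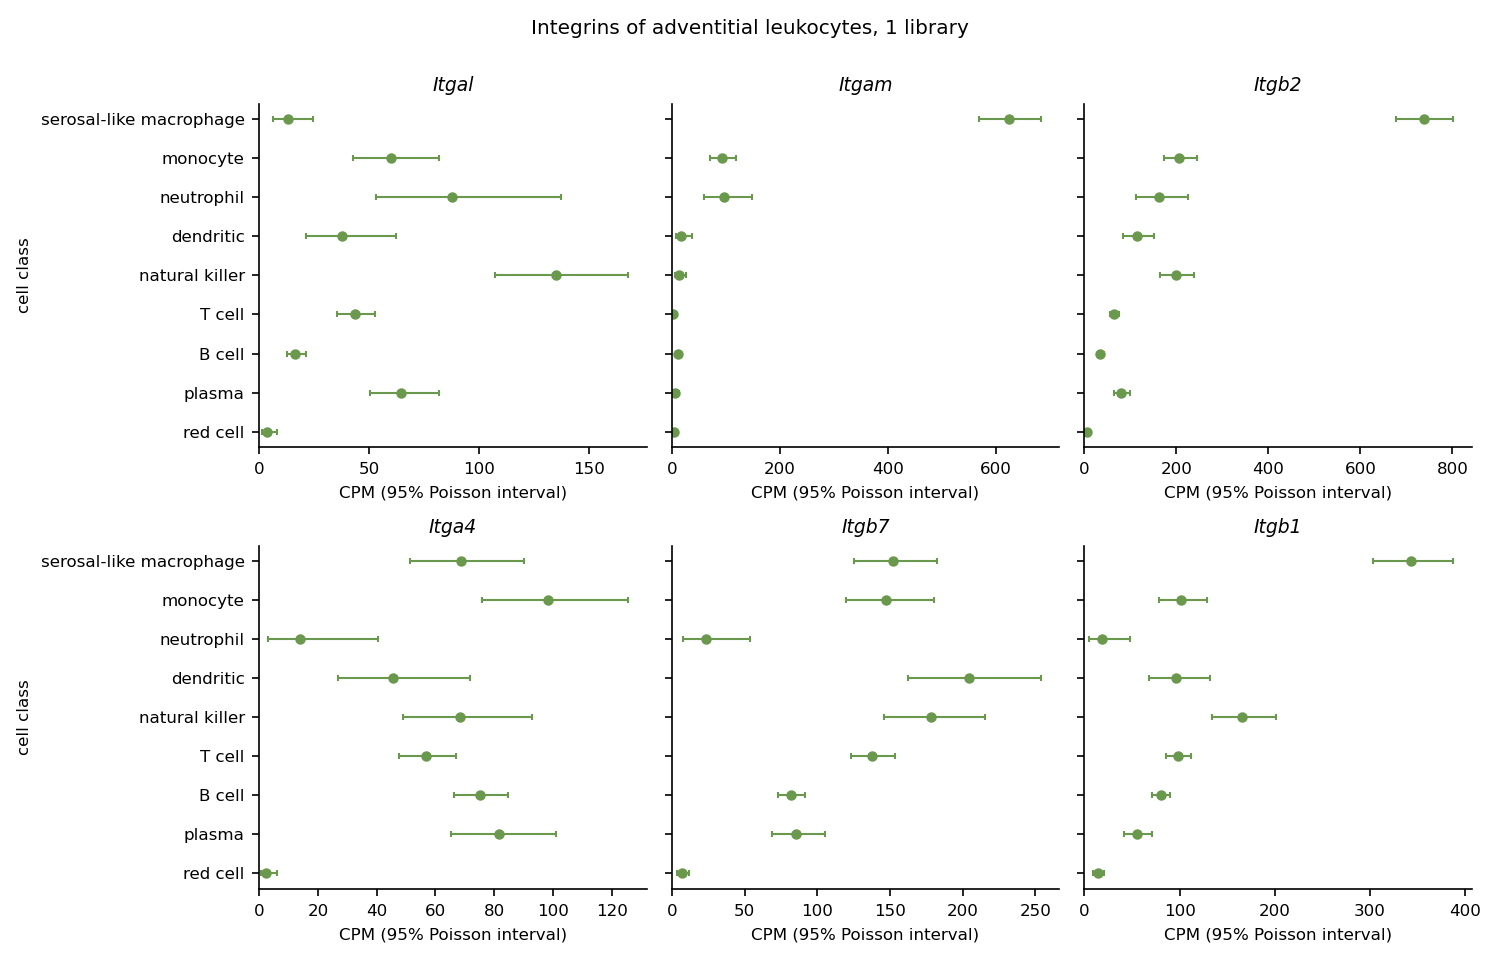
CPM of 6 integrin genes (panels) in leukocyte classes of the single adventitial library, with red cells taken as the background. Bars are exact 95% Poisson intervals, which cover counting error only. Itgal is highest in natural killer cells, Itgam, Itgb2 and Itgb1 in serosal-like macrophages, and Itgb7 in dendritic and natural killer cells.

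The alpha 4 and beta 7 chains, whose pair binds MAdCAM-1, were spread over lymphocytes, plasma cells, monocytes and dendritic cells. Itgb7 stood far highest in the unnamed Cd163l1 Cxcr6 cluster, at 414 (334 to 508) CPM, and that same cluster had 1 UMI of Itga4 (4.51 CPM). Dendritic cells (204, 162 to 254 CPM), natural killer cells (179, 146 to 216 CPM), serosal-like macrophages (152 CPM), monocytes (148 CPM) and T cells (138, 123 to 154 CPM) followed, each overlapping the next, and plasma cells (85.5 CPM) and B cells (81.9, 72.7 to 91.9 CPM) stood below them. Neutrophils had 23.1 CPM of Itgb7 from 5 UMIs.

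Itga4 had a flatter order. It stood at 121 CPM in an unnamed cluster led by Gzmk and Ccl5, at 98.4 (75.8 to 126) CPM in monocytes, 81.7 CPM in plasma cells, 75.1 (66.3 to 84.7) CPM in B cells, 68.4 CPM in natural killer cells and 56.6 (47.4 to 67.1) CPM in T cells. Neighbours in this order overlapped, and neutrophils had 3 UMIs (13.9 CPM). Among adventitial T cells with an Itga4 UMI, 36 of 109 also had Itgb7 (33.03%, against 23.5% of all T cells) and 38 had Itgb1 (34.9% against 14.2%). Thinned to 2000 UMIs, 10 and 15 of 33 cells did, against 93 and 58 of all 403. The T-lineage cells of the arch, nearly all in cluster 18 with dividing, Dntt-carrying cells, had less of all 4 chains than adventitial T cells, which lay in clusters 6 and 15: 21.4 CPM of Itga4, 39.8 of Itgb7, 20.4 of Itgal and 44.9 of Itgb2. These are different cells in 1 library each, with no test. In the whole macrophage class Itga4 stood at 29.4, 34.6, 28.7 and 33.7 CPM, and neither the arch (-0.06 ± 0.47, 0.981) nor the adventitia (0.30 ± 0.42, 0.795; log2 fold change ± SE and edgeR adjusted p) was called. Without the Ear2-led macrophages the log2 fold changes were 0.53 in the arch and 1.16 in the adventitia (edgeR adjusted p = 0.764 and 0.125).

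Itga9 was highest in intimal endothelium and in smooth muscle. It stood at 105 (98.9 to 111), 115 (108 to 122) and 162 (155 to 169.8) CPM in endothelial cells of descending a, descending b and arch, and at 3.67 (1.00 to 9.41) CPM in those of the adventitia. The arch was higher than both descending libraries and the adventitia was far below all 3. Against the descending pair Itga9 rose in arch endothelium (log2 fold change 0.63 ± 0.15 SE, edgeR adjusted p = 0.00173) and fell in adventitial endothelium (log2 fold change -4.79 ± 0.37 SE, edgeR adjusted p = 5.89e-17). The arch value was also the higher one within the 3 endothelial clusters that held at least 20 cells of each of these libraries. Cluster 3 had 168 (158 to 179) CPM of Itga9 in the arch and 138 and 124 CPM in the descending libraries, cluster 9 had 159 (121 to 204) against 101 and 116 CPM, and cluster 2 had 148 (101 to 210.1) against 118 and 119 CPM, where the interval takes in both. DESeq2 did not call the arch difference (adjusted p = 0.700). Smooth muscle cells, with few cells, had 124 CPM in the arch (13 UMIs) and 118 CPM in the adventitia (7 UMIs), while pericytes had 0 (upper limit 11.4 CPM). Smooth muscle markers summed over 7 genes were also highest in arch endothelium, at 612 CPM against 152 and 128 CPM, and their part in the Itga9 difference was not tested.

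Fibroblasts had less Itga9 than endothelium in the intima, at 23.1, 24.3 and 50.4 CPM (log2 fold change -1.84 ± 0.13 SE, edgeR adjusted p = 2.85e-06). Here too the arch was higher than the descending pair (log2 fold change 1.09 ± 0.24 SE, edgeR adjusted p = 0.00359), although not by DESeq2 (adjusted p = 1.00). Endothelial markers summed to 1098, 726 and 1641 CPM and smooth muscle markers to 112, 70.3 and 354 CPM in the fibroblasts of descending a, descending b and arch. Their part in the Itga9 difference was not tested. In adventitial fibroblasts Itga9 stood at 16.05 CPM and was not called against the descending ones (log2 fold change -0.41 ± 0.26 SE, edgeR adjusted p = 0.292). The adventitial effect thus differed between classes by the test of class and library together: relative to endothelium it was 4.41 ± 0.55 (log2, edgeR adjusted p = 1.129e-13) higher in fibroblasts and 3.49 ± 0.71 (2.606e-05) higher in macrophages, where 16.6% and 12.3% of 13037 genes were called. No member's arch effect was called different between macrophages and endothelium, where 1.72% of genes were. VCAM-1 is a further ligand of the alpha 9 and alpha 4 chains. Its gene Vcam1 fell in adventitial endothelium against that of the descending aorta (log2 fold change -5.21 ± 0.25 SE).

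Itgb1, the most widely shared chain, was highest in smooth muscle cells (495 CPM in the arch, 894 in the adventitia), pericytes (478 CPM) and endothelium (416, 443, 458 and 312 CPM). Fibroblasts had 149.7, 133, 163 and 126 CPM and macrophages 176, 203, 138 and 152 CPM, and among the macrophages the serosal-like type stood apart at 343 (303 to 388) CPM. Itgb1 was lower in fibroblasts than in endothelium (log2 fold change -1.40 ± 0.11 SE, edgeR adjusted p = 4.48e-06), and no call was made between fibroblasts and macrophages (log2 fold change -0.34 ± 0.18 SE, edgeR adjusted p = 0.162), except without the arch library (-0.58, adjusted p = 0.0243). Itgb1 was called in none of the 6 comparisons of place: the arch against the descending aorta gave 0.16, 0.23 and -0.36 and the adventitia -0.35, 0.00 and -0.09 (log2, in endothelium, fibroblasts and macrophages; edgeR adjusted p from 0.105 to 0.999). At an unadjusted p under 0.05 only adventitial endothelium passed (0.0446), and DESeq2 called none of the 6 either. Itga9 and its partner Itgb1 were counted together in endothelial cells thinned to 2000 UMIs each. In descending a 147 of 260 cells with Itga9 also had Itgb1, where 808 of all 1415 cells had it. In the arch the numbers were 195 of 336 and 745 of 1242, so cells with Itga9 were about as often positive for Itgb1 as any other.

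**Figure D4:**
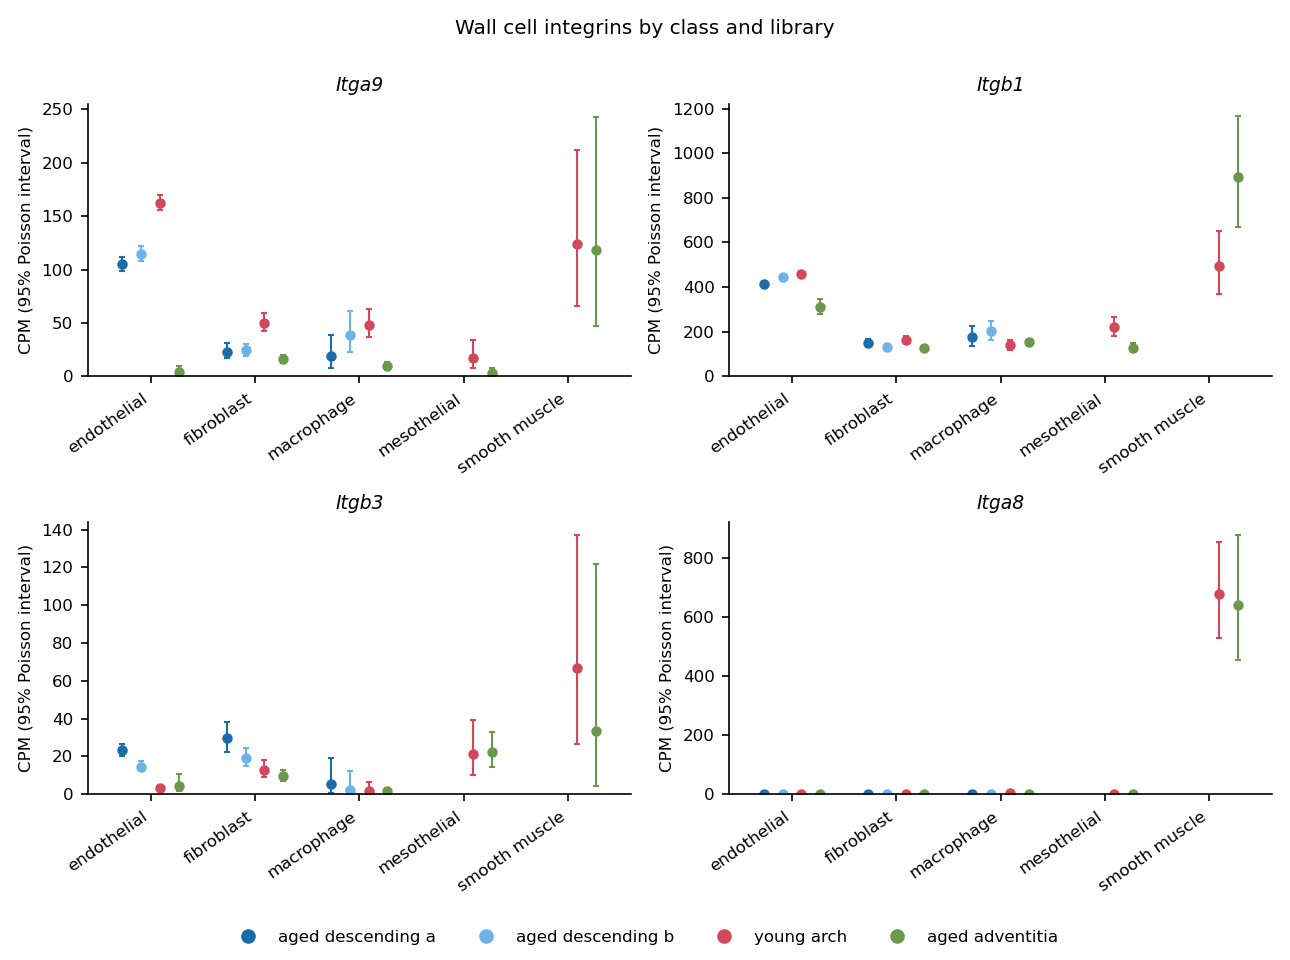
CPM of Itga9, Itgb1, Itgb3 and Itga8 (panels) in wall cell classes and macrophages by library; points are libraries with at least 10 cells and bars are exact 95% Poisson intervals. Itga9 is near 0 in adventitial endothelium and highest of the endothelial values in the arch, Itgb3 is lower in arch than in descending endothelium, and Itga8 is high in smooth muscle and near 0 elsewhere.

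Itgb3, the beta chain of the vitronectin receptor, had the opposite pattern to Itga9 in the arch. In endothelium it stood at 23.2 (20.4 to 26.4) and 14.6 (12.2 to 17.3) CPM in the descending libraries, 3.41 (2.45 to 4.63) CPM in the arch and 4.59 CPM in the adventitia, from 242, 128, 41 and 5 UMIs. The 2 descending values differed beyond counting error and both lay above the arch. Itgb3 fell in arch endothelium (log2 fold change -2.40 ± 0.29 SE, edgeR adjusted p = 3.49e-09; -2.02 without descending a) and in adventitial endothelium (log2 fold change -1.94 ± 0.56 SE, edgeR adjusted p = 0.00405; DESeq2 adjusted p = 0.176). Within the descending endothelium it was highest in cluster 8, led by Adra2a and Col8a1, at 35.7 and 20.8 CPM, against 13.8 and 12.99 CPM in cluster 2 and 17.5 and 12.5 CPM in cluster 9. In cluster 3, which held most arch cells, Itgb3 was 4.32 CPM in the arch and 20.5 and 9.63 CPM in the descending libraries.

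Fibroblasts had 29.5, 19.2, 12.9 and 9.63 CPM of Itgb3, so the arch was below both descending values without passing the test (log2 fold change -0.86 ± 0.32 SE, edgeR adjusted p = 0.178). The adventitia was lower (log2 fold change -1.13 ± 0.30 SE, edgeR adjusted p = 0.00527; DESeq2 adjusted p = 0.631). The arch effect on Itgb3 was smaller in fibroblasts than in endothelium (difference 1.497 ± 0.43, edgeR adjusted p = 0.02366, where 2.68% of genes were called). The low adventitial value was not shared by all its fibroblasts: the 49 adventitial cells that clustered with the intimal fibroblasts had 56.5 (29.2 to 98.7) CPM from 12 UMIs, those of cluster 11 had 13.5 and those of cluster 5 3.76 CPM. Intimal fibroblasts carried more Itgb3 than macrophages (log2 fold change 2.58 ± 0.49 SE, edgeR adjusted p = 0.000802) and than endothelium (log2 fold change 0.88 ± 0.26 SE, edgeR adjusted p = 0.0186), the latter only with the library as a block (adjusted p = 0.346 without it). Mesothelial cells, in the arch and the adventitia, had 21.4 and 22.2 CPM. Platelets also carry the beta 3 chain, and 6 platelet genes summed to 14.1, 17.2, 23.98 and 196 CPM in endothelium. They include Pf4, also a marker of the Lyve1 macrophage type here, and summed to 3624, 3055, 1265 and 3395 CPM in macrophages. The sum is therefore no measure of platelets alone. The part of these 6 genes in the Itgb3 values was not tested.

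By level, Itga8 was highest in smooth muscle. Over all barcodes the libraries held 10, 12, 117 and 96 UMIs of it, not all of them in the smooth muscle cells. It stood at 676 (528 to 853) CPM in the 16 smooth muscle cells of the arch and 641 (453 to 879) CPM in the 11 of the adventitia, 2 values within each other's intervals. Pericytes, the mural cells of small vessels, had 0 UMIs of Itga8 (upper limit 11.4 CPM), although their Itgb1 level lay within the interval of arch smooth muscle (370.0 to 649.7 CPM). Endothelium had 0.288, 0, 0.833 and 0.919 CPM and fibroblasts 0, 0.315, 0.735 and 1.81 CPM. Among named classes and types with at least 10 cells, the next highest value was that of the intima resident macrophages of the arch, 8.69 (3.19 to 18.9) CPM from 6 UMIs, beside 324 CPM of smooth muscle markers summed over 7 genes in those cells against 44.1 and 21.2 CPM in the descending ones. Their part was not tested. Itga8 passed the filter in none of the 10 comparisons of classes, types or places.

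In the adventitia, endothelial cells and fibroblasts showed more RNA of leukocyte integrins than in the descending intima. In endothelium Itgb2 stood at 11.02 CPM against 1.06 and 1.37 CPM (log2 fold change 3.29 ± 0.71 SE, edgeR adjusted p = 0.000139), and Itgal (3.46 ± 1.01, 0.00467), Itgb7 (2.90 ± 0.84, 0.00423) and Itgam (3.04 ± 1.20, 0.0399; log2 fold change ± SE and adjusted p) also rose, from 12, 6, 8 and 4 adventitial UMIs. Adventitial red cells, taken as the background, had 4.83 (2.08 to 9.51) CPM of Itgb2, 3.62 of Itgal, 6.64 of Itgb7 and 3.02 of Itgam. The endothelium had 11.02 (5.70 to 19.3), 5.51, 7.35 and 3.67 CPM, and the 95% intervals of all 4 genes overlapped. Background RNA itself was not measured, and an overlap of intervals does not show that 2 levels are equal. In fibroblasts Itgb2 (3.02 ± 0.63, 0.000436), Itga4 (4.43 ± 1.20, 0.00555) and Itgb7 (2.23 ± 0.64, 0.00948) rose, to 9.03, 4.61 and 6.82 CPM. The intervals of the fibroblast levels overlapped those of adventitial red cells: Itgb2 had an interval of 6.58 to 12.1 CPM in fibroblasts and 2.08 to 9.51 CPM in red cells, Itga4 2.92 to 6.92 and 0.658 to 6.18 CPM, and Itgb7 4.72 to 9.53 and 3.31 to 11.9 CPM. Macrophage markers moved with them: summed over 10 genes they were 165, 152, 314 and 1127 CPM in endothelium and 185, 169, 348 and 1124 CPM in fibroblasts. In endothelium 6 B cell markers summed to 54.5, 64.3, 53.6 and 316 CPM, and 6 red cell markers to 749.9 to 1553 CPM in the intima and 9721 CPM in the adventitia. The part of these markers in the rise was not tested.

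Counted over members, 8 were tested in adventitial endothelium and 4 rose and 2 fell, where 36.4% of 12871 genes were called (18.4% higher, 18.1% lower; median over members 1.66, over all genes -0.14). In adventitial fibroblasts 3 of 6 rose and 1 fell, beside 24.2% of 11525 genes (14.1% and 10.1%; 1.12 and -0.01). DESeq2 lost the endothelial calls on Itgal (0.117), Itgam (0.323) and Itgb7 (0.128). In fibroblasts the fold changes of Itga4 and Itgb2 were 7.15 and 3.90 without descending a and 3.19 and 2.23 without descending b. In every comparison counted in this paragraph a member could pass the filter on low counts through the group where it is high. The counts and medians over members are therefore no support for a change of the set. In arch endothelium 1 member rose and 1 fell of 8, beside 12.3% of genes (6.74% and 5.52%; 0.02 and -0.01). In arch fibroblasts 1 rose of 6, beside 3.99% (2.37% and 1.62%; 0.07 and -0.01). Between intimal fibroblasts and endothelium 1 member was higher and 2 lower of 4 tested, beside 52.2% (26.3% and 25.8%; -0.59 and -0.02). Between intimal fibroblasts and macrophages Itgb3 was higher and 5 of 8 lower, beside 41.0% (21.5% and 19.5%; -5.10 and 0.07): Itgam, Itgb2, Itga4, Itgax and Itgal, with log2 fold changes from -7.54 to -3.50.

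**Figure D5:**
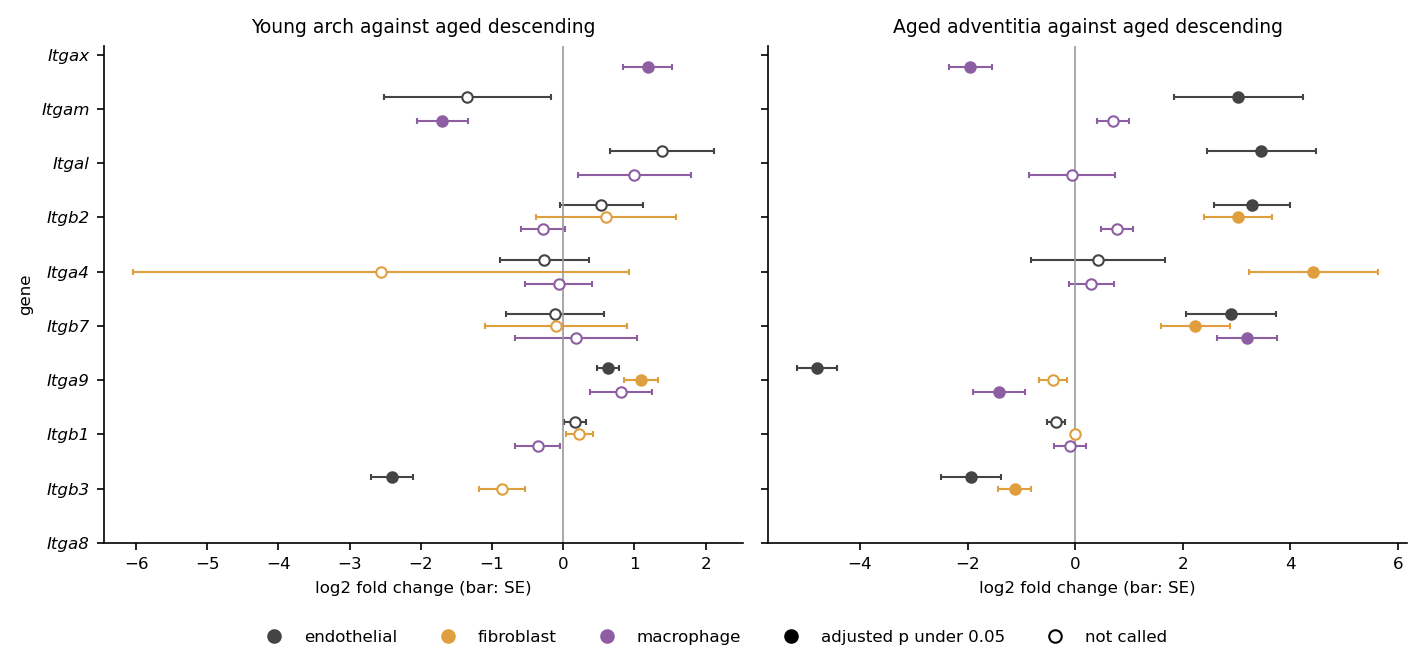
Log2 fold change (points, with SE bars) of the integrin genes in the young arch (left) and the aged adventitia (right) against the 2 aged descending libraries, in endothelial cells, fibroblasts and macrophages; filled points have an edgeR adjusted p under 0.05, and genes without a point did not pass the filter on low counts. Itga9 rises in arch endothelium and fibroblasts and falls in adventitial endothelium and macrophages, Itgb3 falls in endothelium on both sides, and Itgb1 stays unfilled throughout.

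The other integrin chains and the proteins that work with them were counted from 5 lists, to be read against the share of all genes called in the same comparison. Between intimal macrophages and endothelium, where 18.9% of all genes were called higher and 21.8% lower, 3 of 6 tested other alpha chains fell and none rose, led by the laminin-binding Itga3 (-3.24 ± 0.37, adjusted p = 3.92e-08) and the collagen-binding Itga1 (-2.85). Of 3 other beta chains tested, Itgb5 rose (1.15) and Itgb4, a laminin-binding chain, fell (-3.31). Of 15 tested genes of a list on the control of integrin activation from inside the cell, 9 rose and 4 fell. The talin recruiter Apbb1ip (6.00) led the rise, and Fermt2 (-2.87), a kindlin of non-blood cells, was among those that fell. This activation list also holds genes that restrain integrins, Cytip among them. Its counts and medians therefore give no direction of integrin activation. Of 16 linkers and kinases 4 rose, led by the kinase Syk (6.63), and 9 fell. Of 21 ligands 2 rose, osteopontin (Spp1, 3.001) and Tgfb1 (1.93), and 14 fell, among them Jam3 (-3.63) and fibulin-5 (Fbln5, -3.09). All are log2 fold changes from the same edgeR fit.

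Among macrophage types, Itgb5 was the one tested chain of the other beta chains and was higher in the intima resident type (3.68 ± 0.33, adjusted p = 1.77e-07), as were the ligands F11r (2.31) and Vcam1 (1.86 ± 0.24, adjusted p = 1.34e-05); 3 of 9 tested ligands rose and none fell. None of the 12 other alpha chains passed the filter there. In adventitial endothelium 2 of 7 other alpha chains rose and 2 fell, with Itga6, a laminin receptor chain, higher (6.54 ± 0.20, adjusted p = 1.94e-36) and Itga3 (-3.27) and the fibronectin receptor chain Itga5 (-2.69) lower, and Itgb4 fell (-4.25). Itga6 was also higher in adventitial macrophages (4.75 ± 0.57, adjusted p = 9.53e-15) and fibroblasts (3.31). In arch endothelium Itga1 was the one other alpha chain of 7 to change (-0.73 ± 0.19, adjusted p = 0.00583), and in arch macrophages none of the 5 other chains tested was called. Of 10 genes of the activation list 3 rose and 1 fell between the types. Cytip, which binds cytohesin in leukocytes, rose (7.90 ± 0.83, edgeR adjusted p = 3.17e-06). Rasgrp2, an activator of Rap1, fell (-4.88 ± 1.03, edgeR adjusted p = 0.00157). Of 9 linkers 3 rose and 1 fell, among them Parvg, a parvin of blood cells (7.25), and Tns1, a tensin, which fell (-2.16). Of all genes, 13% were called higher and 13.7% lower there.

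Of all genes tested, 6.74% were called higher and 5.52% lower in arch endothelium, 18.4% and 18.1% in adventitial endothelium, 2.37% and 1.62% in arch and 14.1% and 10.1% in adventitial fibroblasts, and 1.52% and 1.67% in arch and 5.49% and 4.81% in adventitial macrophages. Of the 15 genes of the activation list, Cytip (1.87) was higher in arch endothelium. Tln2, a talin (-1.12 ± 0.18), and Rasgrp2 (-1.02) were among those lower there (log2 fold changes). In adventitial endothelium 8 of 15 rose and 2 fell, led by Cytip (5.05) and Rasgrp2 (4.41). Of the linkers and kinases, 4 of 16 rose and none fell in arch endothelium, led by the kinase Src (1.72 ± 0.40, adjusted p = 0.00111) and followed by Ilk, the integrin-linked kinase (0.63). In adventitial endothelium 2 rose and 3 fell, and Zyx, a focal adhesion protein, was lower (-2.75). Zyx was also lower in adventitial fibroblasts (-1.99 ± 0.21, adjusted p = 8.3e-09), where 3 of 13 linkers fell and none rose. Of the ligands, Col1a1 was higher (3.34 ± 0.23) and osteopontin lower (Spp1, -7.28) in arch endothelium. Col1a1 is also a marker used here to name fibroblasts, and the part of fibroblast RNA in its endothelial value was not tested. In arch fibroblasts 4 of 20 rose, with Col1a1 again among them (1.52). In the adventitia 9 of 21 ligands rose and 8 fell in endothelium, where the nephronectin gene Npnt was lower (-2.68 ± 0.74, adjusted p = 0.00254). In adventitial fibroblasts 6 of 20 rose and 8 fell, and vitronectin was higher (Vtn, 6.68 ± 0.47, adjusted p = 6.18e-13). In adventitial macrophages 4 of 15 rose and 4 fell, and fibronectin was higher (Fn1, 2.16 ± 0.29, adjusted p = 4.67e-12). In arch macrophages Cytip of the activation list (1.24 ± 0.35) and the ligand Fbln5 (1.39) were higher (log2 fold changes). The median log2 fold change of the ligands was -1.98 between macrophages and endothelium, 0.22 in arch and -0.09 in adventitial endothelium. That of the activation list was 0.84, -0.03 and 1.20, beside -0.15, -0.01 and -0.14 over all genes.

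Over the 28 sums of a class and library with at least 20 cells, the 3 genes most like each member outside the integrins were found by Pearson correlation of log2(CPM + 1) among 13493 genes. They were C5ar1 (0.97), Lrrc25 and Ptafr for Itgam, Bin2 (0.95), Arhgap30 and Dock2 for Itgb2, Ipcef1 (0.93), B4galnt1 and Rassf5 for Itgal, and Gpr34 (0.89), Ccl4 and Bcl2a1d for Itgax. For the chains with other partners they were Ifi209 (0.92), Rgs14 and Pik3cd for Itga4, Cytip (0.88), Sla and Arhgap15 for Itgb7, Vcam1 (0.90), Exoc3l4 and Hey2 for Itga9, Strn3 (0.91), Setd5 and Akt1 for Itgb1, Phlpp2 (0.89), Slc25a4 and Casc4 for Itgb3, and Clec9a (0.61), Flt3 and Cxcl9 for Itga8. The sums share libraries and depth, and the smooth muscle cells, where the level of Itga8 was highest, are too few to be among them. Between members the highest correlations were those of Itgb2 with Itgal and with Itgam (both 0.83), and the lowest was that of Itga9 with Itga4 (-0.58).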

How the data were processed

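Single-cell RNA of 4 aortic libraries was analysed from the counts deposited by the authors, whole UMI counts per gene and cell barcode in 10x matrices, made with Cell Ranger 2.1.2 on mm10, per the submitters' processing notes. The members and gene lists were chosen with earlier results of these data known, and the doublet share and naming rule were set after clusters and automatic doublet calls (6, 23, 17 and 2) had been seen. Every column of cells belongs to 1 labelled library.

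Of 27998 genes, 27645 had a symbol. The libraries held 13715023, 13181305, 18624525 and 29370967 UMIs. Cells with under 200 genes or over 10% mitochondrial UMIs were left out, and the cells with the highest Scrublet scores, a share set in proportion to the library's size (42, 41, 58 and 646 cells), were removed as doublets. Cells were clustered with scanpy 1.11.5 and leidenalg 0.10.2 (2000 variable genes without integrins, 30 components, 15 neighbours, resolution 1.0, then 0.5 within macrophages). A cluster was named when at least 3 listed markers were in at least 20% of its cells and at 10% or more of the highest cluster. Each also had to be at least 2-fold over a background, the lower quartile of that marker over the clusters of the cluster's main library. Rebuilt names may differ from the study's.

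UMIs were summed per class and library with at least 20 cells (10 where only levels are shown, and no minimum for macrophage types). The tests used edgeR 4.0.16 (quasi-likelihood, TMM scaling, the filterByExpr filter, Benjamini-Hochberg over all genes tested, threshold 0.05) in R 4.3.3, with a library block between classes or types; the script was tested on simulated data. Alternatives were DESeq2 1.42.0, RLE factors, no filter, no doublet removal, no block, 5% mitochondrial limit, mean CPM per cell, thinning to 2000 UMIs, integrins among the clustering genes, each library left out and single macrophage types. The set without Ear2-led macrophages and the test of class with library were chosen after seeing the data. All members are named. Of each list, called genes among those with the 2 largest changes in each direction are named, except for a listed gene that is not reported here. Levels have exact 95% intervals; depth limits what a 0 means.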

Additional observations from a re-analysis of the deposited data

Results flagged for a closer look

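The effect of place differed between cell classes for 3 members, by a test of class and library together in edgeR over 12 sums with the library as a block, chosen after the data had been seen. In the aged adventitia against the aged descending intima, Itga9 fell by 4.79 on the log2 scale in endothelium, and relative to that change it was 4.41 ± 0.55 (SE, edgeR adjusted p = 1.129e-13) higher in fibroblasts and 3.49 ± 0.71 (2.606e-05) higher in macrophages. For Itgb2 the adventitial effect in macrophages relative to that in endothelium was -2.33 ± 0.62 (log2, edgeR adjusted p = 0.002625), where the endothelial level rests on 12 UMIs. In the young arch the effect on Itgb3 was 1.5 ± 0.43 (edgeR adjusted p = 0.02366) higher in fibroblasts than in endothelium. The arch effects on the members did not differ between macrophages and endothelium past the threshold, where 1.72% of genes did. The endothelial cells of the adventitia and of the descending aorta lay in different clusters, so these differences also compare different cells.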

How the results depend on the processing

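Of 430 fold changes of members that were tested under the alternatives, 395 kept their direction and side of the threshold, 21 lost the call (12 of them by DESeq2), 5 gained it and 9 reversed. A further 84, with a descending library left out of an arch or adventitia comparison, have no test: 8 of them, of members not called there, changed sign or went to 0 (in the arch Itgb2, Itga4 and Itgb7 in macrophages, Itga4 in endothelium, and Itgb2 and Itga4 in fibroblasts; in the adventitia Itgal in macrophages and Itgb1 in fibroblasts). Scaling with RLE factors changed none of 70 and clustering with integrins none of 26. The reversed values with a test were Itgb2 between macrophage types without descending b (-0.24 to 0.29 over the libraries left out), Itgax in arch macrophages within the intima resident type (-0.066), Itga4 there without Ear2-led cells (0.53), and in the adventitia Itgam (-1.10) and Itgb2 (-0.73) within Lyve1 macrophages, Itgal in macrophages with no filter (0.022) or no doublet removal (0.16), Itgb1 in macrophages without Ear2-led cells (0.057) and Itgb1 in fibroblasts with no doublet removal (-0.051). The cause was not tested.

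DESeq2 called fewer genes than edgeR: 1631 against 2643 lower in macrophages than endothelium, 2089 against 3161 lower in fibroblasts than endothelium, 1411 against 2176 higher in fibroblasts than macrophages, and 228 and 235 against 448 and 472 higher and lower in the intima resident type. In the arch it called 17 and 43 higher and lower against 124 and 136 (macrophages), 94 and 86 against 868 and 711 (endothelium) and 28 and 25 against 273 and 187 (fibroblasts), and in the adventitia 81 and 85 against 447 and 392, 1281 and 876 against 2362 and 2324, and 386 and 248 against 1621 and 1165. In arch macrophages 21 and 27 genes were called within the Lyve1 type, 20 and 15 within the intima resident type and 203 and 214 without Ear2-led cells, and in adventitial macrophages 295 and 178 within the Lyve1 type.

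Leaving out 1 library gave 1886 to 1948 genes higher and 1917 to 2054 lower in macrophages than endothelium, 2468 to 3239 and 2327 to 3304 in fibroblasts than endothelium, 1659 to 1855 and 1580 to 1628 in fibroblasts than macrophages, and 328 to 366 and 376 to 421 between types. No paired analysis was possible because the descending libraries a and b have no counterpart in the arch or adventitia; without the library block between classes, 22 of 24 values kept their call and Itgb3 lost it in both (adjusted p = 0.173 and 0.346). Shares of cells with a UMI moved on thinning to 2000 UMIs in 103 cases and not in 87, and levels moved in 19 and not in 361 under a 5% mitochondrial limit or a mean over cells.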
